A study of Mus musculus with 2 samples.

Results

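The miR-30 family of the mouse comprises 6 genes, Mir30a, Mir30b, Mir30c-1, Mir30c-2, Mir30d and Mir30e, which lie as 3 pairs at 3 loci. The rule that picks them is their gene symbol and uses no measured value, and all 6 were found among the 1973 miRNA gene rows of each library. Small RNA had been sequenced from the facial prominences (cranioface) of wild-type B6NCrl mouse embryos at embryonic day 14.5, with no treatment, as 2 biological replicates and no other group. Each sample is labelled as the face of a single pup, yet its sex is given as a pool of male and female, so it is not settled whether a replicate is 1 embryo. The replicates were collected on different days, and the day and the replicate cannot be told apart. No conditions can be contrasted with a single group, and the results are the levels of the 6 genes, the shares of the 3 loci and the spread between the replicates.

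A miRNA gene is transcribed into a long precursor, from which a hairpin is cut out. Its stem yields mature miRNAs from the 5′ arm (5p) and the 3′ arm (3p). A mature miRNA recognises its target messenger RNAs mainly through its seed, bases 2 to 8, and miRNAs with the same seed form a family with overlapping targets. The miR-30 family is widely expressed and is known as a regulator of bone-forming cells, fat cells and the kidney, and as a brake on the change from epithelium to mesenchyme. Its known targets include messenger RNAs of Runx2, the main transcription factor of bone formation, and of Snai1, which drives epithelial cells towards a mesenchymal state.

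The mature sequences show what the family shares and how far its members can be told apart by a short read. RefSeq (GRCm38.p6) lists sequences for 4 of the 6 members. The 5p sequences below carry the seed in capitals, which was GUAAACA in each, and Mir384 is shown because its 5p sequence has the same seed. Mir30b and Mir30d have no entry.
miR-30e-5p (Mir30e): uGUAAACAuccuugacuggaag
miR-30a-5p (Mir30a): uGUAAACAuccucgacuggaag
miR-30c-5p (Mir30c-1 and Mir30c-2): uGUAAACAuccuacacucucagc
miR-384-5p (Mir384): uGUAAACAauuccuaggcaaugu
Of the 1738 mature entries of the table, 5 had this seed, those of Mir30a, Mir30c-1, Mir30c-2, Mir30e and Mir384. Its reverse complement, the bases a target would offer for pairing, is UGUUUAC. Over the first 22 bases miR-30e-5p and miR-30a-5p had 21 in common and differed by the substitution U13C, with positions counted from 1 at the 5′ end, the base of miR-30e first and that of miR-30a last. Against miR-30e-5p, miR-30c-5p had 17 of 22 bases in common and the substitutions U13A, G14C, G18C, G19U and A20C.

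The 3p sequences, shown with their own seeds in capitals, divide the 4 genes into 2 groups, Mir30e with Mir30a and Mir30c-1 with Mir30c-2.
miR-30e-3p (Mir30e): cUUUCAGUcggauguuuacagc
miR-30a-3p (Mir30a): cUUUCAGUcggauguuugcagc
miR-30c-1-3p (Mir30c-1): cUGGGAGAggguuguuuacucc
miR-30c-2-3p (Mir30c-2): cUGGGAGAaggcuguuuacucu
The 3p arms of Mir30e and Mir30a differed by A18G alone. Those of Mir30c-1 and Mir30c-2 differed by G9A, U12C and C22U.

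Mir30c-1 and Mir30c-2 make the same 5p miRNA, and the stretch that their hairpins share is longer than the mature sequence. Both hairpins are printed because this sharing bears on the counts of these genes. The longest common stretch, 28 bases, is in capitals.
Mir30c-1 hairpin: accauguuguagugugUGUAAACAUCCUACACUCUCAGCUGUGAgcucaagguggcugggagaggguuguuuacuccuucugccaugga
Mir30c-2 hairpin: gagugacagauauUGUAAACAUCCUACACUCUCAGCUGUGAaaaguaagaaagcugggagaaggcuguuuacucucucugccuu
The whole of miR-30c-5p lies inside that stretch. A read of it has a place at both genes, and the deposited counts have the layout of a counter that assigns only reads with 1 place in the genome. No such whole-sequence match to another listed miRNA gene was found for either arm of Mir30e or Mir30a, nor for the 3p arms of Mir30c-1 and Mir30c-2. The hairpins of Mir30e and Mir30a had 18 bases in common at most.

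On assembly mm10, each locus holds its 2 genes on the same strand. Mir30e (ENSMUSG00000065409.1, chromosome 4, 120772606 to 120772697, minus strand) and Mir30c-1 (ENSMUSG00000065490.1, chromosome 4, 120769534 to 120769622, minus strand) lie in introns of Nfyc, which is read from the same strand and encodes a subunit of the CCAAT-binding transcription factor NF-Y. Mir30d (ENSMUSG00000065437.1, chromosome 15, 68341208 to 68341289, minus strand) lies in an exon of the long noncoding RNA gene Gm20732. Mir30b (ENSMUSG00000065476.2, chromosome 15, 68337415 to 68337510, minus strand) overlaps an exon of the noncoding gene Gm26621 by 16 bases. Mir30a (ENSMUSG00000065405.2, chromosome 1, 23272269 to 23272339, plus strand) lies between annotated genes. Mir30c-2 (ENSMUSG00000065567.1, chromosome 1, 23291701 to 23291784, plus strand) lies in an exon of the long noncoding RNA gene Gm27028.

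The genes of a pair stand 2983 bases apart at the Mir30e locus, 3697 at the Mir30d locus and 19361 at the Mir30a locus. Mir30e, Mir30d and Mir30a come first in the direction of transcription. No other miRNA gene row lay within 50 kb of any of the 3 loci.

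**Figure D1:**
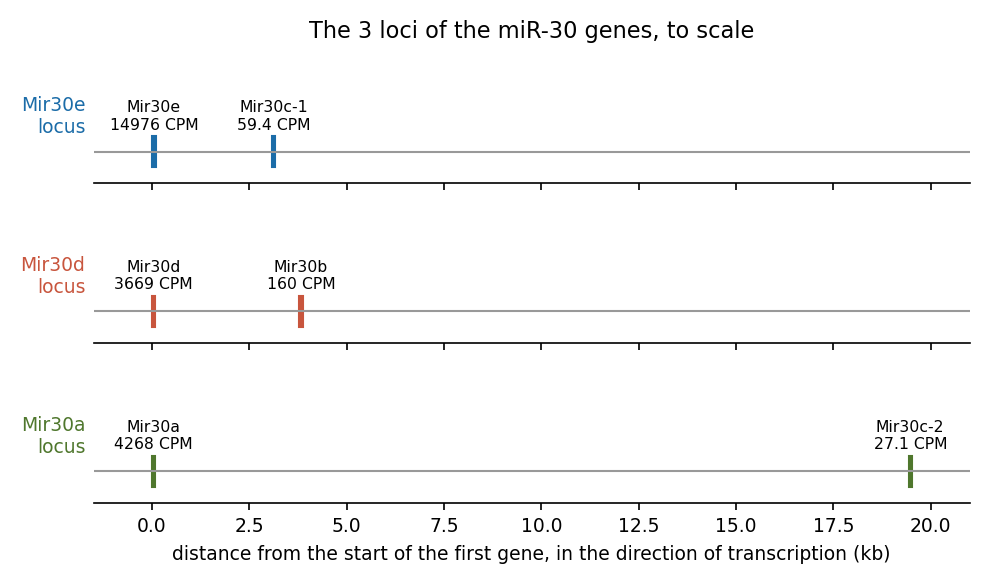
Positions of the 6 genes at their 3 loci, drawn to scale as distance in kb from the start of the first gene in the direction of transcription, with the mean CPM of the 2 replicates above each gene. In each pair the first gene has the higher level, and the genes of the Mir30a locus lie farthest apart, with 19361 bases between them.

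Counts on the strand of the gene were used, 2719153 in replicate 1 and 6602050 in replicate 2 over all miRNA genes, and were scaled to that total as CPM, the counts per 1000000 counts on miRNA genes. Reads with several places in the genome, 29.8% and 28.5% of all reads, are not among them. Marker miRNAs of the tissues that build a face were present in both libraries, with summed levels of 52450 and 67435 CPM for 7 of 7 epithelial genes, 17643 and 12119 CPM for 4 of 4 mesenchymal genes and 43454 and 41703 CPM for 2 of 2 cartilage genes in replicates 1 and 2. The endothelial marker gene stood at 41674 and 54165 CPM. The 6 neural marker genes with a row summed to 743 and 528 CPM, with 2 above 3 counts in each library and 4 at 0 in both (Mir124a-1, Mir124a-2, Mir124a-3 and Mir9-2), where genes that are copies of each other can lose shared reads under this count layout. Liver Mir122 stood at 12.5 and 5.60 CPM.

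Together the 6 genes held 2.60% of the miRNA counts of replicate 1 and 2.03% of those of replicate 2. The family sum was 26029 CPM in replicate 1 and 20289 CPM in replicate 2, a mean of 23159 ± 4059 CPM (mean ± SD, n = 2, as for all such values below). All 6 genes were detected in both libraries, but the levels fell into an upper group of 3 and a lower group of 3. The upper group held the first gene of each locus, Mir30e, Mir30a and Mir30d, at 3514 CPM or more in each library. The lower group held the second genes, Mir30b, Mir30c-1 and Mir30c-2, at 161 CPM or less in each library.

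Mir30e, from the Nfyc intron, had the highest level. Its 47025 counts in replicate 1 gave 17294 CPM (95% Wilson interval 17140 to 17450) and its 83564 counts in replicate 2 gave 12657 CPM (12572 to 12743), a mean of 14976 ± 3279 CPM. This placed it at rank 18 of the 717 miRNA genes with a count, between the smooth muscle miRNA gene Mir143 (16808 ± 1322 CPM) and the mesenchymal miRNA gene Mir214 (13601 ± 3584 CPM). Both neighbours lay within the spread of Mir30e.

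Mir30a and Mir30d stood close together below it. Mir30a gave 12662 counts in replicate 1, or 4657 CPM (interval 4576 to 4738), and 25610 counts in replicate 2, or 3879 CPM (3832 to 3927), a mean of 4268 ± 550 CPM at rank 47. Mir30d gave 10399 counts, or 3824 CPM (3752 to 3898), and 23198 counts, or 3514 CPM (3469 to 3559), a mean of 3669 ± 220 CPM at rank 55. Mir30a was the higher of them in each library, by 1.22 and 1.10 times, but their means differed by 599 CPM, less than the sum of their SDs (769 CPM). Mir30e exceeded Mir30a 3.71-fold and 3.26-fold, and there the difference of the means (10708 CPM) was larger than the sum of the SDs (3828 CPM).

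The 3 lower genes were each far below their partner. Mir30b gave 432 counts in replicate 1, or 159 CPM (interval 145 to 175), and 1066 counts in replicate 2, or 161 CPM (152 to 171), which put it at rank 187. Mir30c-1 had 67.3 CPM (183 counts, 58.2 to 77.8) and 51.5 CPM (340 counts, 46.3 to 57.3), rank 223. Mir30c-2 had 28.3 CPM (77 counts, 22.7 to 35.4) and 25.9 CPM (171 counts, 22.3 to 30.1), rank 256. Neighbouring genes in this order, Mir30d, Mir30b, Mir30c-1 and Mir30c-2, differed in their means by more than the sum of their SDs at each step. Intervals cover counting error within 1 library only, and not the spread between embryos. Molecular identifiers are not described, so the counts may include amplified copies of the same molecule, which the intervals do not allow for.

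Both Mir30c genes together reached 95.6 CPM in replicate 1 and 77.4 CPM in replicate 2, which is 0.367% and 0.381% of the family. Whole reads of the 5p sequence shown above have a place at both genes, and under that layout they are in neither row, so the counts of Mir30c-1 and Mir30c-2 do not measure how much miR-30c the tissue held. The part of this sharing in their low levels was not tested. For Mir30b no sequence was at hand to look for such sharing.

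**Figure D2:**
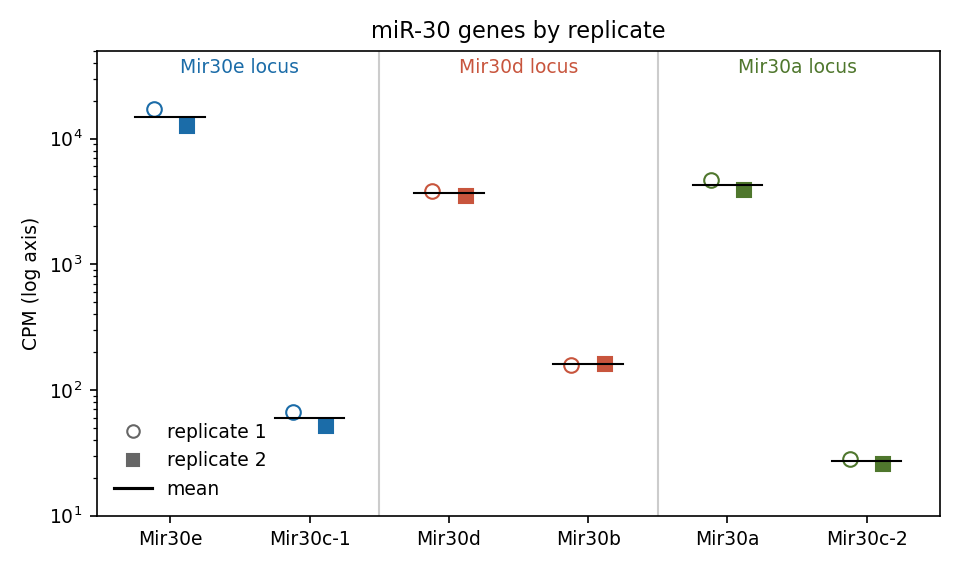
CPM of each miR-30 gene (log axis), with replicate 1 as open circles, replicate 2 as filled squares and the mean of both as a line, grouped and coloured by locus. Mir30e, Mir30d and Mir30a lie between 3514 and 17294 CPM, and their partners Mir30c-1, Mir30b and Mir30c-2 between 25.9 and 161 CPM.

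**Figure D3:**
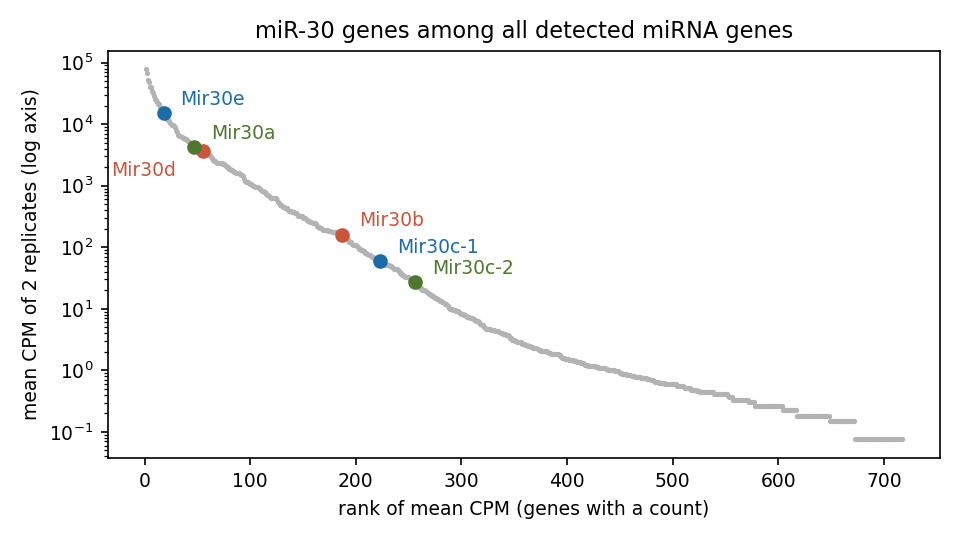
Mean CPM of the 2 replicates (log axis) against rank for the 717 miRNA genes with a count (grey), with the miR-30 genes coloured by locus. Mir30e, Mir30a and Mir30d stand at ranks 18, 47 and 55, and Mir30b, Mir30c-1 and Mir30c-2 at ranks 187, 223 and 256.

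The 3 loci contributed unequally to the family. The Mir30e locus summed to 17361 CPM in replicate 1 and 12709 CPM in replicate 2, the Mir30a locus to 4685 and 3905 CPM, and the Mir30d locus to 3983 and 3675 CPM. The Mir30e locus exceeded the Mir30a locus 3.71-fold and 3.25-fold and the Mir30d locus 4.36-fold and 3.46-fold. The Mir30d locus stood at 0.850 and 0.941 times the Mir30a locus. Under the same layout the sums of the Mir30e and Mir30a loci leave out whole miR-30c-5p reads.

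Shares of the family do not depend on how the libraries are scaled, so they compare the replicates directly. The Mir30e locus held a share of 66.7% in replicate 1 (66.4 to 67.0, the 95% interval by Wilson's method) and of 62.6% in replicate 2 (62.4 to 62.9). The Mir30a locus held 18% (17.7 to 18.3) and 19.2% (19.0 to 19.5), and the Mir30d locus 15.3% (15.0 to 15.6) and 18.1% (17.9 to 18.3). The intervals of the replicates did not overlap at any of the 3 loci. This is not particular to the miR-30 loci. Nor did they overlap at the 3 loci of the miR-181 family, described below, with shares of 72.2% and 70.7%, 15.7% and 19.4%, and 12.1% and 9.91%. Among all genes tested, 52.2% were called as different between these libraries in the binomial test below, which is a measure of single genes and unlike the overlap of shares. The shares of a family add up to the whole, so a lower share at 1 locus goes with higher shares elsewhere. In CPM the Mir30a locus (4685 and 3905) and the Mir30d locus (3983 and 3675) were lower in replicate 2, although their shares were higher. The order of the loci was the same in both libraries, and over the replicates the shares were 64.7% ± 2.87, 18.6% ± 0.883 and 16.7% ± 1.99.

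**Figure D4:**
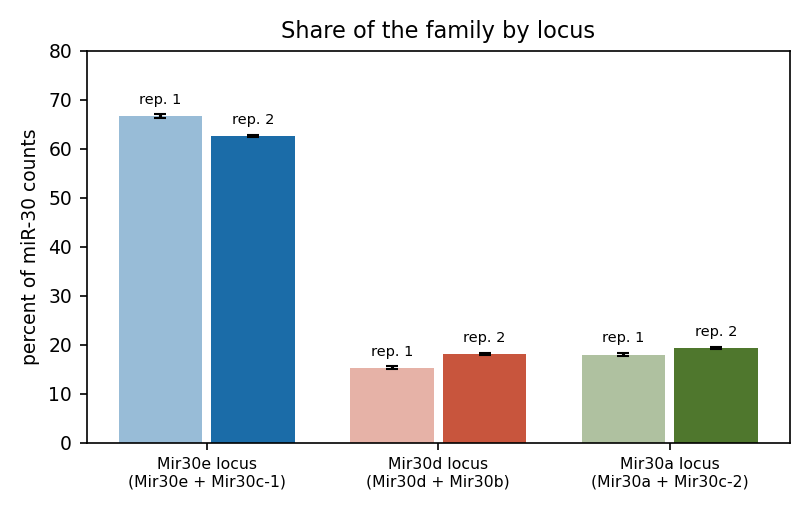
Percent of all miR-30 counts that came from each locus in replicate 1 (light bars) and replicate 2 (dark bars), with 95% Wilson intervals as error bars. The Mir30e locus holds 66.7% and 62.6%, and each of the other loci between 15.3% and 19.2%.

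Within a locus, the ratio of the partners was measured less precisely than that of the well-counted genes between loci. No change from one library to the other exceeded counting error at the 95% level. Mir30e exceeded Mir30c-1 256-fold in replicate 1 and 245-fold in replicate 2, a log2 ratio of 8.002 (counting SE 0.107) and 7.94 (0.078). Mir30a exceeded Mir30c-2 163-fold and 149-fold, a log2 ratio of 7.35 (0.16) and 7.22 (0.11). Mir30d exceeded Mir30b 24.0-fold and 21.8-fold, a log2 ratio of 4.59 (0.071) and 4.44 (0.045). The change of the log2 ratio from replicate 1 to replicate 2 was -0.062 at the Mir30e locus (95% counting interval -0.32 to 0.20), -0.13 at the Mir30a locus (-0.52 to 0.26) and -0.145 at the Mir30d locus (-0.309 to 0.020). The 3 intervals include 0 and are wide, because each rests on the low count of a second gene. Under the same layout whole miR-30c-5p reads are missing from the Mir30c-1 and Mir30c-2 rows. No whole-arm sharing was found for Mir30e and Mir30a. Their ratios to these partners therefore compare rows that are not limited alike and do not measure the balance of the mature miRNAs.

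Between loci, the ratios of the well-counted genes changed by more than counting error at the 95% level. The log2 ratio of Mir30e to Mir30a was 1.89 in replicate 1 and 1.71 in replicate 2, a change of -0.19 (95% counting interval -0.22 to -0.15). That of Mir30e to Mir30d changed by -0.33 (-0.365 to -0.291), from 2.18 to 1.85. That of Mir30a to Mir30d changed by -0.14 (-0.19 to -0.096), from 0.28 to 0.14. Changes of -0.19 and -0.14 also lie inside each of the 3 intervals within the loci. The largest change, -0.328 for Mir30e to Mir30d, lies just below the intervals of the Mir30e locus (from -0.322) and the Mir30d locus (from -0.309). It lies inside that of the Mir30a locus. Its own interval overlaps all 3, so the loci are not shown to hold their partner ratios more closely. These ratios are free of library scaling, and they compare 2 libraries, not 2 conditions.

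For each gene, the counts of both libraries were also compared with an exact binomial test. The test used library sizes adjusted by edgeR's TMM method and p-values adjusted by the Benjamini-Hochberg method over all 372 genes with a mean of at least 10 counts, and all 6 members were among them. Of the 6 members, 2 were lower in replicate 2, Mir30e and Mir30a, and 0 were higher. Among all genes tested 52.2% were called, 24.7% as lower and 27.4% as higher, so the count of members called lower is not far from the background. The exact binomial test gave adjusted p under 1e-300 for Mir30e, with a log2 ratio of replicate 2 over replicate 1 of -0.33 (counting SE 0.0080), and adjusted p = 8.83e-18 for Mir30a, with a log2 ratio of -0.14 (0.016). These are changes of 1.25-fold and 1.10-fold. The Mir30e value lies below the lower quartile of all genes tested (-0.25), and that of Mir30a between the lower quartile and the median (-0.017).

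Mir30c-1, Mir30d, Mir30b and Mir30c-2 did not pass. Their log2 ratios were -0.26 (counting SE 0.13) for Mir30c-1, 0.0030 (0.017) for Mir30d, 0.15 (0.082) for Mir30b and -0.0080 (0.20) for Mir30c-2. The exact binomial test gave adjusted p = 0.093, 0.934, 0.124 and 1 for these genes in the same order. The median over the 6 members was -0.073, against -0.017 over all genes tested.

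The scaling matters for these calls. With total counts in place of TMM, which lowers every log2 ratio by 0.13, Mir30c-1 (-0.39) and Mir30d (-0.12) were also called lower, so that 4 of 6 members passed, against 53.0% of all genes called under that scaling, 35.8% as lower and 17.2% as higher. Mir30e (-0.45) and Mir30a (-0.26) were lower under both scalings, and Mir30b (0.022) and Mir30c-2 (-0.13) were called under neither. Marker sums also differed between these libraries, with the epithelial sum and the endothelial marker gene higher and the mesenchymal and neural sums lower in replicate 2, as given above. The skeletal muscle (11714 and 13349 CPM), erythroid (1093 and 1406 CPM) and leukocyte (567 and 736 CPM) sums were also higher. The smooth muscle sum (18130 and 16278 CPM) and the kidney and gut sum (135 and 130 CPM) were lower, as were the cartilage sum and Mir122 given above. The neural sum was almost all Mir137 (740 and 522 CPM), and most of the mesenchymal sum was Mir214 (mean 13601 ± 3584 CPM). Mir205, 1 of the 7 epithelial genes, went against the epithelial sum (8705 and 7509 CPM), and the sums do not show how the other epithelial genes moved. The part of these differences in the lower Mir30e and Mir30a counts was not tested. In bulk tissue, fewer cells that make a miRNA and less of it in each cell cannot be told apart.

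**Figure D5:**
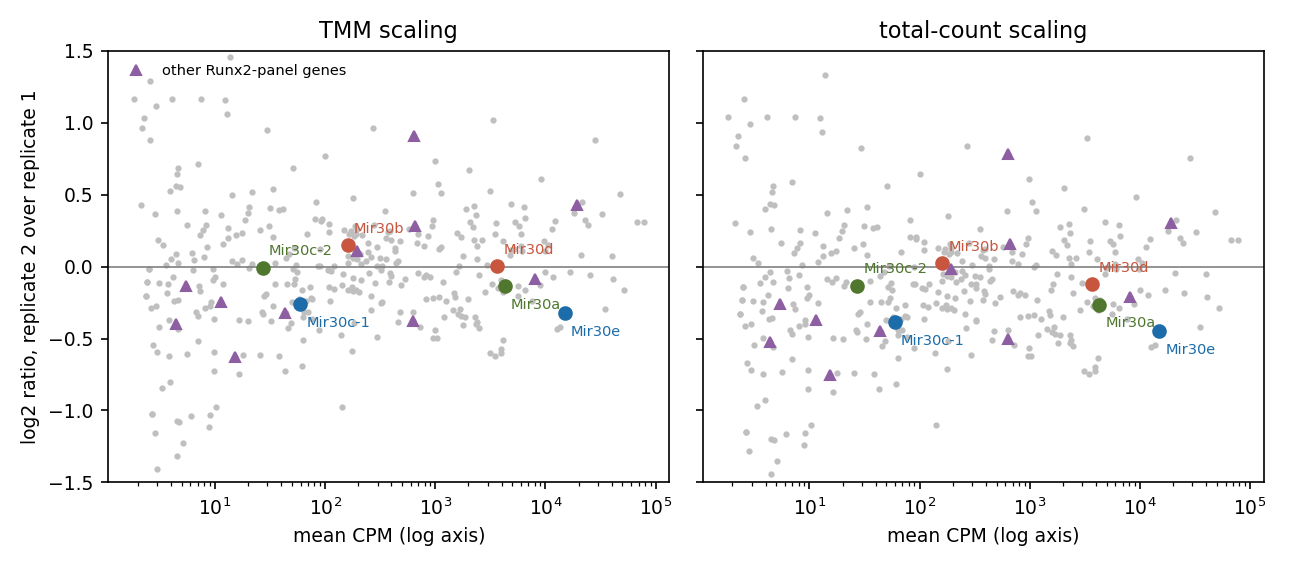
Log2 ratio of replicate 2 over replicate 1 against mean CPM (log axis) for the 372 tested genes (grey), with the miR-30 genes coloured by locus and the other genes of the Runx2 panel as triangles, under TMM scaling (left) and total-count scaling (right). Mir30e stands at -0.33 and -0.45 and Mir30a at -0.14 and -0.26, while Mir30d lies at 0.0030 and -0.12. The axis leaves out 5 tested genes beyond 1.5 in size.

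Genes whose log2 ratio lay nearest to that of a member were sought among the 99 genes outside the family with a mean of at least 1000 CPM, over the 2 libraries only. The nearest to Mir30e was Mir101b (-0.33, mean 1598 CPM), and to Mir30a Mir541 (-0.13, 5689 CPM). Mir134 (0.0040, 1633 CPM) was nearest to both Mir30d and Mir30c-2, Mir125a (0.145, 5961 CPM) to Mir30b and Mir652 (-0.24, 7572 CPM) to Mir30c-1. In level, Mir30a stood between Mir181c (4315 ± 487 CPM) and Mir93 (4162 ± 1279 CPM), and Mir30d between Mir296 (3749 ± 506 CPM) and Mir434 (3531 ± 308 CPM). The neighbours of Mir30b were Mir32 (161 ± 22.6 CPM) and Mirlet7c-1 (148 ± 9.28 CPM), those of Mir30c-1 were Mir103-2 (61.4 ± 23.9 CPM) and Mir33 (57.4 ± 9.84 CPM), and those of Mir30c-2 were Mir181b-1 (27.8 ± 4.39 CPM) and Mir1198 (27.1 ± 5.93 CPM). With 2 libraries such likeness is a description only.

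Other miRNA genes with the miR-30 seed or site add little to the uniquely placed counts. Mir384, whose 5p miRNA shares the seed GUAAACA, gave 49 counts in replicate 1 (18.02 CPM) and 113 in replicate 2 (17.1 CPM), below each of the 6 members. The gene Mir30f is annotated on the opposite strand of the Mir30e hairpin, at the same positions, and was not among the rows used here. Its listed mature sequence is printed to show that its seed, in capitals, is UAAACAU and not that of the family.
miR-30f (Mir30f): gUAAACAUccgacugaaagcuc
Opposite-strand counts at Mir30e were 0 in both libraries, which allows up to 1.10 CPM equivalent in replicate 1 and 0.454 in replicate 2 (3 counts each). They were also 0 at the other 5 members.

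miR-30c belongs to a panel of miRNAs known to act on Runx2, and the other genes of that panel give the rows of Mir30c-1 and Mir30c-2 a context. All 15 genes of the panel had a row, and 13 were tested. Mir23a was highest at 19301 ± 2878 CPM, and Mir205, an epithelial miRNA gene, followed at 8107 ± 845 CPM. Mir34c (656 ± 50.3 CPM), Mir204 (639 ± 238 CPM), Mir137 (631 ± 154 CPM) and Mir338 (193 ± 1.39 CPM) came next. Mir30c-1 (59.4 ± 11.2 CPM) and Mir30c-2 (27.1 ± 1.71 CPM) took places 7 and 9 of 15, on either side of Mir218-2 (43.7 ± 9.49 CPM). Below them stood Mir217 (15.2 ± 5.49 CPM), Mir218-1 (11.4 ± 2.03 CPM), Mir135a-2 (5.44 ± 0.626 CPM) and Mir135a-1 (4.39 ± 1.07 CPM), with Mir133a-1 and Mir133a-2 at 0 counts in replicate 1 and at 8 and 2 counts in replicate 2. Panel genes that are copies of each other, as in the Mir218, Mir135a and Mir133a pairs, can lose shared reads under this count layout. The places are therefore those of rows and do not rank the mature miRNAs.

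In the exact binomial test 3 genes of the panel were higher in replicate 2 (Mir23a, Mir34c and Mir204) and 3 were lower (Mir137, Mir205 and Mir217), 6 of 13, against 52.2% of all genes tested (27.4% higher and 24.7% lower), so the panel is near the background. Mir204, at a log2 ratio of 0.905, differed most among them, followed in size by Mir217 (-0.63) and Mir23a (0.43). The other 7 tested genes, with both Mir30c genes among them, did not pass, and the median over the 13 was -0.13. With total counts 5 of 13 genes were lower, Mir30c-1 and Mir218-2 in addition, against 35.8% of all genes tested.

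The miR-181 family has the same layout, with 6 genes as 3 pairs, and showed a different balance within its pairs. Its sum was 10015 ± 1124 CPM, under that of the miR-30 family in each library. Its leading locus, with Mir181c and Mir181d, held 72.2% and 70.7% of the family, against the 66.7% and 62.6% of the Mir30e locus. Mir181c exceeded Mir181d only 1.48-fold and 1.56-fold, whereas the smallest ratio within a miR-30 pair was the 21.8-fold of Mir30d over Mir30b in replicate 2. Mir181b-2 exceeded Mir181a-2 9.33-fold and 6.86-fold, also less than that, whereas Mir181a-1 exceeded Mir181b-1 53.7-fold and 71.3-fold, more than Mir30d over Mir30b and less than the other miR-30 pairs. The counting intervals of the change from replicate 1 to replicate 2 left out 0 in these pairs. The log2 ratio changed by 0.073 (0.025 to 0.122) for Mir181c, 0.409 (0.027 to 0.791) for Mir181a-1 and -0.444 (-0.638 to -0.250) for Mir181b-2, each over its partner. The miR-30 intervals included 0, but the counting SE was 0.132 at the Mir30e locus and 0.198 at the Mir30a locus, against 0.025 for Mir181c. The change of 0.073 lies inside both of those miR-30 intervals, and it is smaller in size than that of Mir30d over Mir30b (-0.145). The miR-30 pairs are therefore not shown to hold their ratios more closely. As in Mir30c-1 and Mir30c-2, 1 listed arm of Mir181a-1, Mir181b-1, Mir181a-2 and Mir181b-2 is shared whole with another gene, and these rows stood at 1717 ± 69.0, 27.8 ± 4.39, 121 ± 7.31 and 990 ± 272 CPM in the same order. The miR-26 family, at 21114 ± 461 CPM, had a sum near that of the miR-30 family, 99.7% of it from Mir26b. Mir26b exceeded Mir26a-2, which shares an arm with Mir26a-1, 360-fold and 391-fold, a larger ratio than that of Mir30e over Mir30c-1. Under the same layout the sums, shares and ratios of both families leave out whole reads of the shared arms. Mir181c, Mir181d and Mir26b share no arm, so these values compare rows that are not limited alike and do not measure the balance of the mature miRNAs.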

How the data were processed

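The 6 members were matched by gene identifier, version dropped, to symbols of GENCODE M21 on mm10, of which 5 had the same version. Each deposited file holds the unnormalized counts of 1 library over the miRNA genes of GENCODE M4, from reads aligned to mm10, per the metadata text deposited beside it. The aligner is not given in the sources used here. Files without column names hold counts of both strands, the gene strand and the opposite strand, a layout as in STAR gene counts, where reads with several places are left out. The 4 summary rows, among them unmapped reads (16.6% and 17.6%) and reads on no miRNA gene (3.0% and 2.38%), stayed out of library sizes.

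CPM, TMM sizes (edgeR 4.0.16), DESeq2 1.42.0 size factors, exact two-sided binomial tests with a threshold of 0.05 (SciPy 1.17.1), and log2 ratios with a prior of 0.5 counts were computed. The binomial step was run on simulated data that held counting error only, as the test assumes, which checks the computation and not its fit to these libraries. A count of 0 allows 3 counts. The binomial test allows for counting error only, so its p-values compare these 2 libraries and say nothing of the spread between embryos. Sequences are RefSeq's (GRCm38.p6). Members, lists and compared families were chosen with earlier results of these data known. Named genes are the members, the listed families, the Runx2 panel, Mir384, the nearest gene above and below each member in level, and the nearest in replicate ratio.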

Additional observations from a re-analysis of the deposited data

How the results depend on the processing

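The alternatives were the unstranded counts, total counts or DESeq2 size factors in place of TMM, TMM sizes for the levels, a total without the highest gene, a mean of at least 100 counts or no count filter, replicate 2 thinned to the depth of replicate 1, no prior, and leaving out each replicate. Member levels moved by more than their SD in 4 cases, Mir30d (3979 CPM), Mir30b (174 CPM) and Mir30c-2 (29.4 CPM) without the highest gene and Mir30b (153 CPM) with unstranded counts. Locus shares cannot move with the scaling. Leaving out a replicate left the family level between 20289 and 26029 CPM, and no binomial test can then be made. Members called lower numbered 4 with total counts instead of 2, and 1 member, Mir30d, was called higher with no count filter (0.051). In the Runx2 panel 5 were called lower with total counts instead of 3. Mir217 was lost with no filter (-0.58) and with thinning (-0.62). At a mean of at least 100 counts only 9 panel genes were tested, and Mir217 was not among them. Mir218-2 was gained with thinning (-0.485) and at a mean of at least 100 counts (-0.340), so that 3 were called lower under both of these. The causes of these shifts beyond the scaling itself were not tested.

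With total counts the log2 ratio turned for Mir30d (-0.12), Mir338 (-0.015), Mir181a-2 (-0.12), Mir26b (-0.044) and Mir384 (-0.083). At a mean of at least 100 counts it turned for Mir30d (-0.013) and Mir181a-2 (-0.015), and with no filter for Mir30c-2 (0.039) and Mir26a-2 (0.0070). With thinning it turned for Mir30d (-0.010), Mir30c-2 (0.23), Mir218-1 (0.034), Mir181a-2 (-0.027), Mir26a-1 (0.12) and Mir26a-2 (0.016). No paired analysis was possible because there is 1 group. Among the 6 members, depth limits Mir30c-1 and Mir30c-2 most, with 183 and 77 counts in replicate 1.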

Other observations

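Sharing of a whole mature arm with another miRNA gene was counted for the 916 genes with a row and a listed mature sequence. Of the 51 genes that, like Mir30c-1 and Mir30c-2, share 1 arm and not the other, 46 were detected, with a median of 35.7 CPM, and Mir30c-1 and Mir30c-2 took places 18 and 25 among these. Of the 828 genes that share no arm, 557 were detected, with a median of 2.86 CPM, and Mir30e and Mir30a took places 17 and 46. Of the 37 genes that share every listed arm, 10 were detected, and the highest stood at 961 CPM. A level of at least 1000 CPM was reached by 9.80% of the genes that share 1 arm and 11.0% of those that share none. These values describe the rows and were not tested.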
